A study of Mus musculus with 4 samples.

Results

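Mrc1-positive macrophages outside other subsets were 584 of the 11224 immune cells kept from 4 single-cell libraries of B16F10-OVA tumours, a mouse melanoma line that carries the model antigen ovalbumin. The hosts were miR-155 T cell conditional knockout mice (miR-155 TCKO), which lack microRNA miR-155 in T cells, and wild-type C57BL/6 mice. Tumour cells were injected under the skin, and tumours were taken 12 or 9 days later. The tumours of a group were pooled, with more than 4 mice, so each combination of genotype and day was 1 library. Live CD45-positive cells (CD45 marks blood-derived cells) were sorted without a myeloid gate, and equal cell numbers were loaded for 3′ sequencing on the 10x platform. The driver that removes miR-155 is not given in the sources used here, and the macrophages themselves are not labelled as deleted.

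The members were chosen by their own counts of unique molecular identifiers (UMIs, each standing for 1 captured transcript). A barcode needed at least 200 genes, at most 10% mitochondrial UMIs, at least 5 Lyz2 UMIs, at least 6 UMIs over C1qa, C1qb and C1qc and at least 1 Mrc1 UMI. It was kept out when it carried more than 9 UMIs of Cxcl9 and Cxcl10, at least 10 Spp1 UMIs together with Trem2, more than 2 Arg1 UMIs, any UMI of Ace, Lyve1, Cd209f, Xcr1, Clec9a or Ccr7, or more than 1 Cd3 UMI. It was also kept out with at least 1 Il18bp UMI and at least 2 UMIs over Gbp2b, Gbp4 and Gbp8. These clauses take away macrophages of the chemokine, lipid-associated, arginase, patrolling, perivascular and interferon-gamma kinds, together with dendritic cells and T cells, so the members are a remainder and not a cluster. The members numbered 193 in miR-155 TCKO and 283 in wild-type tumours at day 12, and 94 in miR-155 TCKO and 14 in wild-type tumours at day 9.

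Mrc1 encodes the mannose receptor CD206, an endocytic lectin of tissue macrophages that is induced by interleukin-4 and is widely read as a sign of alternative activation. In a growing tumour, macrophages are replenished by Ly6C-positive blood monocytes, which carry Ly6c2, Plac8 and Ccr2 and lose them as they mature, while C1q, Apoe and Mrc1 come up. Type I and type II interferons switch on partly separate gene programmes in such cells. miR-155 is induced in activated T cells, where it is known to support interferon-gamma production.

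Sequences are shown first for the microRNA that was deleted and for the promoters of the genes on which the interferon and Retnla results below turn. All are RefSeq entries on GRCm38.p6, printed 5′ to 3′. In the microRNA, at chr16:84714143-84714165 on the plus strand, capitals mark the seed, bases 2 to 8.
miR-155-5p: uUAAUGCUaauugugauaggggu
In the promoter windows, capitals mark GAAA followed after any 2 bases by GAAA, a short form of the element bound by interferon-activated factors, or its reverse form, TTTC followed after any 2 bases by TTTC. Only the first match of a promoter is in capitals. In the Isg15 and Bst2 windows a further match overlaps it and runs on into the lower case letters. The windows lie at chr4:156200877-156200906 (minus strand, Isg15), chr19:34583363-34583392 (plus, Ifit3), chr12:26456553-26456582 (minus, Rsad2), chr7:141010723-141010752 (minus, Ifitm3), chr8:71537583-71537612 (minus, Bst2) and chr5:120777715-120777744 (minus, Oas3).
Isg15: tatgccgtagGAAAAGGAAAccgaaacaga
Ifit3: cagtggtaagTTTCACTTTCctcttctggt
Rsad2: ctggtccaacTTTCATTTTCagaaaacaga
Ifitm3: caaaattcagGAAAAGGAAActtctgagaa
Bst2: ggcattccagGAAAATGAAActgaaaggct
Oas3: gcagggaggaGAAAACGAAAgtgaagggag
The element was present, on either strand, in 12 of 21 promoters of the type I interferon list (57.1%) and in 11 of 21 of the interferon-gamma list (52.4%). It was present in 0 of 21 promoters of the resident-type list and in 943 of 27025 promoters of the table (3.49%). For Retnla, at chr16:48842454-48842483 on the plus strand, capitals mark TTC followed after any 4 bases by GAA, a short palindrome.
Retnla: agaatcataaTTCACAAGAAattgctaaac
That motif was in 3 of 17 promoters of the alternative activation list (17.6%), in 2 of 21 of the type I interferon list (9.52%) and in 1888 of the 27025 promoters (6.99%). A match describes the letters of a window of 300 bases and no binding was measured.

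The host transcript of the deleted microRNA, Mir155hg, was counted at 0 UMIs in the members of every library. In T cells, defined by at least 5 Cd3 UMIs, it had 0 UMIs in 180 miR-155 TCKO cells and 13 in 353 wild-type cells at day 12, and 2 in 776 miR-155 TCKO cells and 99 in 937 wild-type cells at day 9. The summed member libraries held 2140335 UMIs in miR-155 TCKO and 2530545 in wild-type at day 12, and 1459494 in miR-155 TCKO and 149317 in wild-type at day 9. The median depth per member was 10885 UMIs in miR-155 TCKO and 8989 in wild-type at day 12, and 15324 in miR-155 TCKO and 10309 in wild-type at day 9. The wild-type day 9 members stand apart in size: 1 cell gave 14.0% of their UMIs, so each value of that library rests on very few cells. Libraries shared 4 to 16 barcodes in pairs, and no barcode was a member in both libraries of a pair. Since every group is 1 library, no value below has a replicate check, the intervals of 95% cover counting error only, and the day of collection cannot be told apart from the run in which its libraries were made.

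The identity of the members as macrophages rests on genes that the rule did not use. Csf1r, the receptor of the macrophage growth factor, was at 198 UMIs per 1000000 UMIs of the members (CPM) in miR-155 TCKO and 235 CPM in wild-type at day 12, and at 329 CPM in miR-155 TCKO and 395 CPM in wild-type at day 9. Levels of genes used by the rule describe the selection and have no test. These genes were left out of the gene lists below, except the lists of other cell types. C1qa, a chain of the complement component C1q, was at 2732 CPM in miR-155 TCKO and 2797 CPM in wild-type at day 12, and at 2209 CPM in miR-155 TCKO and 2016 CPM in wild-type at day 9. Mrc1 was at 433 CPM in miR-155 TCKO and 373 CPM in wild-type at day 12, and at 173 CPM in miR-155 TCKO and 281 CPM in wild-type at day 9. Defining markers of other cells were near 0: at day 12 Cd79a had 0 UMIs in both genotypes, and Flt3 had 0 in miR-155 TCKO and 5 in wild-type members. Cd3e had 2 UMIs in miR-155 TCKO and 5 in wild-type members at day 12, a count that the rule itself limits. Over the whole lists, the 11 T cell genes in the files summed to 21.5 to 46.9 CPM, the 5 B cell genes to 8.91 to 14.2 CPM and the 8 neutrophil genes to 26.8 to 33.2 CPM. The 8 melanoma genes were higher in miR-155 TCKO members at both days. They summed to 60.3 CPM in miR-155 TCKO and 39.1 CPM in wild-type at day 12 (ratio 1.54, 1.18 to 2.02). At day 9 they summed to 76.1 CPM in miR-155 TCKO and 13.4 CPM (2 UMIs) in wild-type (ratio 5.68, 1.54 to 47.5). The 10 NK cell genes summed to 91.1 CPM in miR-155 TCKO and 179 CPM in wild-type at day 12, and to 72.6 CPM in miR-155 TCKO and 261 CPM in wild-type at day 9, so they were lower in miR-155 TCKO members at both days. The 11 conventional dendritic cell genes summed to 159 CPM in miR-155 TCKO and 149 CPM in wild-type members at day 12, and to 78.8 CPM in miR-155 TCKO and 355 CPM in wild-type members at day 9, where Cd209a alone gave 214 CPM in the wild-type library. The 7 plasmacytoid dendritic cell genes summed to 923 CPM in miR-155 TCKO and 821 CPM in wild-type members at day 12, and to 434 CPM in miR-155 TCKO and 824 CPM in wild-type members at day 9. Of these sums Bst2, which macrophages also express under interferon, gave 864 CPM in miR-155 TCKO and 772 CPM in wild-type at day 12, and 316 CPM in miR-155 TCKO and 797 CPM in wild-type at day 9, while Siglech, which defines the cell type, had 0 or 1 UMI in each library. As an alternative chosen after the data were seen, members with any UMI of Cd3, Flt3, Klrb1c, Ncr1, Cd79a or Siglech were left out. The genotype ratios of shares of kept cells, described next, were then 1.32 at day 12 and 3.01 at day 9. The median log2 ratio of the type I interferon list was -0.03 at day 12 and -2.35 at day 9.

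The members made up 9.48% of kept cells (exact binomial interval 8.24% to 10.8%) in miR-155 TCKO tumours and 7.70% (6.86% to 8.61%) in wild-type tumours at day 12. At day 9 they made up 2.51% (2.04% to 3.07%) in miR-155 TCKO and 0.788% (0.431% to 1.32%) in wild-type tumours. The share was thus higher at day 12 than at day 9 in both genotypes, by 3.77 times (2.93 to 4.88) in miR-155 TCKO and 9.78 times (5.73 to 18.1) in wild-type tumours. Of cells with macrophage levels of Lyz2 and C1q, members were 39.1% in miR-155 TCKO and 25.7% in wild-type tumours at day 12, and 19.4% in miR-155 TCKO and 12.2% in wild-type tumours at day 9. The ratio of shares of kept cells, miR-155 TCKO over wild-type, was 1.23 (1.02 to 1.48) at day 12 and 3.19 (1.81 to 6.06) at day 9.

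The genotype ratio of shares of kept cells at day 12 did not hold in 2 alternatives. With the rule applied to barcodes thinned to 5000 UMIs its interval held 1 (1.09, 0.898 to 1.31), and without the clause on Il18bp and Gbp genes it was below 1. Among barcodes that passed the Lyz2, C1q and Mrc1 clauses, 61 of 415 in miR-155 TCKO and 352 of 747 in wild-type tumours failed the Il18bp and Gbp clause at day 12. At day 9, 20 of 214 in miR-155 TCKO and 27 of 43 in wild-type tumours failed it. Those that failed no other clause were 11 in miR-155 TCKO and 221 in wild-type tumours at day 12, and 4 and 21 at day 9. Il18bp encodes a soluble blocker of interleukin-18 and the Gbp genes encode guanylate-binding proteins, and all of them are induced by interferon-gamma. Without that clause the share was 10.0% in miR-155 TCKO and 13.7% in wild-type tumours at day 12, so that the ratio was 0.730 (0.618 to 0.861), on the other side of 1. At day 9 it was 2.62% in miR-155 TCKO and 1.97% in wild-type tumours, a ratio of 1.33 (0.896 to 2.02). The higher share of members in miR-155 TCKO tumours at day 12 is therefore a statement about Mrc1-positive macrophages low in these interferon-gamma genes and not about Mrc1-positive macrophages as a whole.

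**Figure D1:**
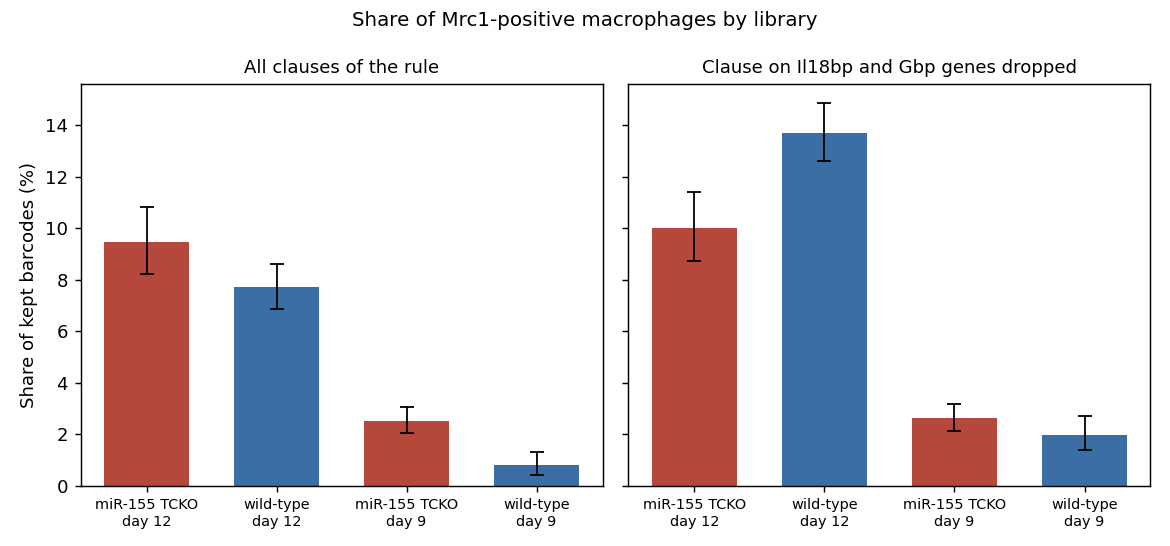
Members as a percentage of kept cells in each library (bars; lines are exact binomial intervals of 95%), with all clauses of the rule on the left and without the Il18bp and Gbp clause on the right. At day 12 the miR-155 TCKO bar is the higher one on the left (9.48% against 7.70%) and the lower one on the right (10.0% against 13.7%).

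The rule's threshold on Mrc1 cut through a continuous range. Members with a single Mrc1 UMI were 16.6% in miR-155 TCKO and 28.3% in wild-type tumours at day 12. In miR-155 TCKO tumours at day 12, those 32 cells had Ly6c2 at 2059 CPM, C1qa at 2296 CPM and Retnla at 80.1 CPM. The 38 cells just outside, with 0 Mrc1 UMIs and every other clause passed, had Ly6c2 at 1150 CPM, C1qa at 2855 CPM and Retnla at 1423 CPM. In wild-type tumours at day 12 the 80 cells inside had Ly6c2 at 3633 CPM and C1qa at 2282 CPM, and the 114 cells outside had Ly6c2 at 2835 CPM and C1qa at 2263 CPM. At day 12 Ly6c2 was thus higher in members with a single Mrc1 UMI and Retnla higher in the cells outside, with wild-type Retnla levels of 105 CPM inside and 1273 CPM outside. At day 9 Ly6c2 had the other order, with 454 CPM inside and 650 CPM outside in miR-155 TCKO, and 2473 CPM inside and 4300.0 CPM outside in wild-type tumours. C1qa at day 9 was at 2115 CPM inside and 1244 CPM outside in miR-155 TCKO, and at 1009 CPM inside and 1011 CPM outside in wild-type tumours. The median depths at day 12 were 8958 UMIs inside and 7835 outside in miR-155 TCKO, and 7941 inside and 6817 outside in wild-type tumours. Members with at least 5 Mrc1 UMIs differed from the cells outside in the other direction at day 12. Their Retnla was at 1808 CPM in miR-155 TCKO and 3501 CPM in wild-type, and their Ly6c2 at 1070 CPM and 1147 CPM. Over all members Retnla was at 2711 CPM in miR-155 TCKO and 1551 CPM in wild-type, above the cells outside, and uneven between cells as described below.

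The most abundant transcripts of the members were those of antigen presentation, iron storage and the actin skeleton. Among the 15 genes with the highest mean level were Cd74, H2-Ab1, H2-Aa and H2-Eb1 of the MHC class II pathway, Ftl1 and Fth1 (ferritin chains), Tmsb4x and Actb (actin system), B2m, Ifitm3, Fcer1g, Ccl6 and the rule gene Lyz2. Cd74, the invariant chain that escorts class II molecules, was at 21631 CPM in miR-155 TCKO and 19290 CPM in wild-type at day 12, and at 16237 CPM in miR-155 TCKO and 23212 CPM in wild-type at day 9. Ccl6, a chemokine of myeloid cells, was at 6373 CPM in miR-155 TCKO and 5062 CPM in wild-type at day 12, and at 3631 CPM in miR-155 TCKO and 2947 CPM in wild-type at day 9. Its level was higher at day 12 than at day 9 in both genotypes, and it did not pass the test of day (log2 fold change 0.81, SE 0.27, adjusted p = 0.56, edgeR).

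Genotype and day were tested across 8059 genes with edgeR's quasi-likelihood test on the 4 summed libraries, with an additive model that leaves 1 residual degree of freedom. In that test 1 gene was higher and 1 gene was lower in miR-155 TCKO members at an adjusted p of 0.05 or below, 0.0124% of genes in each direction, and 305 genes had an unadjusted p under 0.05. For day, 6 genes were higher at day 12 (0.0745%) and 1 was lower (0.0124%), and 524 genes had an unadjusted p under 0.05. DESeq2's Wald test called 1 and 1 genes for genotype and 3 and 0 for day. On simulated counts of this design the test recovered 173 of 200 genes changed 4-fold by genotype and 1 of 200 changed 2-fold, so changes of 2-fold were mostly out of its reach. The changed genes were drawn from those with at least 200 UMIs over the libraries, and no difference between days was simulated. Recovery among genes with fewer UMIs, or of changes that differ between days, was not simulated. Differences within a day are therefore given as ratios of the 2 libraries with counting intervals and no test.

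The gene that rose in miR-155 TCKO members, Gm10709, and the gene that fell, Rpl29, are near copies of each other. Rpl29 encodes a protein of the large ribosomal subunit (chr9:106429454-106431568, plus strand, GRCm38), and Gm10709 is annotated as a processed pseudogene of 480 bases on the same chromosome (chr9:7751725-7752204, plus strand) that matches an Rpl29 transcript at 476 bases, 99.2%. Gm10709 was at 849 CPM in miR-155 TCKO and 7.11 CPM in wild-type members at day 12, and at 861 CPM in miR-155 TCKO and 46.9 CPM in wild-type members at day 9 (log2 fold change 5.99, SE 0.54, adjusted p = 3.97e-04, edgeR). Rpl29 was at 151 CPM in miR-155 TCKO and 1415 CPM in wild-type members at day 12, and at 94.6 CPM in miR-155 TCKO and 1366 CPM in wild-type members at day 9 (log2 fold change -3.50, SE 0.29, adjusted p = 3.30e-04, edgeR).
The pair moved in opposite directions by genotype at both days. Without the Il18bp and Gbp clause Rpl29 stayed under the threshold (adjusted p = 0.043, edgeR) and Gm10709 did not (adjusted p = 0.063, edgeR). Reads of such copies can be assigned to either, so both values are uncertain. The same split was seen outside the members: in T cells Gm10709 was at 1376 CPM in miR-155 TCKO and 14.3 CPM in wild-type at day 12, and Rpl29 at 238 CPM in miR-155 TCKO and 2385 CPM in wild-type.

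Vcan, which encodes the matrix proteoglycan versican and is carried by recruited monocytes, was named as a marker of these cells and was not used by the rule. It was at 98.1 CPM in miR-155 TCKO and 49.4 CPM in wild-type members at day 12. The levels at day 9 were 48.0 CPM in miR-155 TCKO and 60.3 CPM in wild-type members. At day 12 the miR-155 TCKO library was the higher one by 0.99 on the log2 scale (0.66 to 1.32), and at day 9 the interval of the ratio held 0 (-1.34 to 0.86). A Vcan UMI was found in 79 of 193 miR-155 TCKO and 74 of 283 wild-type members at day 12, and in 20 of 94 miR-155 TCKO and 5 of 14 wild-type members at day 9. After thinning each cell to 5000 UMIs the shares were 30.6% in miR-155 TCKO and 20.2% in wild-type at day 12, against 2.08% of miR-155 TCKO and 1.05% of wild-type T cells, which should lack the gene. A Vcan UMI was thus counted in a minority of the members of every library. At 210 UMIs over 193 miR-155 TCKO members and 125 UMIs over 283 wild-type members at day 12, a cell without one may still express the gene. Genotype did not pass the test for Vcan (log2 fold change 0.58, SE 0.39, adjusted p = 1.00, edgeR).

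Other genes of matrix and wound repair were also higher in the miR-155 TCKO library at day 12. Of 21 genes of that list with at least 20 UMIs over the pair, 9 were at least 1.5-fold higher in miR-155 TCKO and 1 was lower, with a median log2 ratio of 0.49. Over all 8423 genes so measured at day 12, 6.65% were 1.5-fold higher and 8.79% lower, and the median was -0.03. At day 9, 8 of 18 genes of the list were higher and 5 lower (median 0.05), where 23% of all genes were higher and 22.7% lower. Fn1, which encodes fibronectin, was at 701 CPM in miR-155 TCKO and 281 CPM in wild-type members at day 12. Day 9 levels were 341 CPM in miR-155 TCKO and 201 CPM in wild-type members. It was higher in miR-155 TCKO at both days, by 1.32 (1.19 to 1.45) at day 12 and 0.76 (0.23 to 1.34) at day 9 on the log2 scale, and it did not pass the test across days (log2 fold change 1.10, SE 0.28, adjusted p = 0.62, edgeR). A Fn1 UMI was found in 138 of 193 miR-155 TCKO and 126 of 283 wild-type members at day 12, counted at full depth. Of T cells thinned to 5000 UMIs, 4.17% in miR-155 TCKO and 3.16% in wild-type carried one, so members and T cells are at unlike depths here.
Plaur, the receptor of the plasminogen activator urokinase, was at 107 CPM in miR-155 TCKO and 39.9 CPM in wild-type members at day 12 (log2 ratio 1.42, 1.08 to 1.78). Timp1, an inhibitor of matrix metalloproteinases that stood outside the list and among the 10 highest ratios of day 12, was at 58.4 CPM in miR-155 TCKO and 15.4 CPM in wild-type members (log2 ratio 1.92, 1.39 to 2.48). Thbs1, which encodes thrombospondin 1, was at 28.0 CPM in miR-155 TCKO and 4.74 CPM in wild-type members at day 12. At day 9 it was at 69.2 CPM in miR-155 TCKO and 134 CPM in wild-type members, but 17 of the 20 wild-type UMIs came from 1 cell and the other 13 cells held 3, so no order can be read at day 9. Of the 21 genes tested, 0 passed edgeR's test of genotype or of day, 3 had an unadjusted p under 0.05 for genotype, and DESeq2 called 0.

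**Figure D2:**
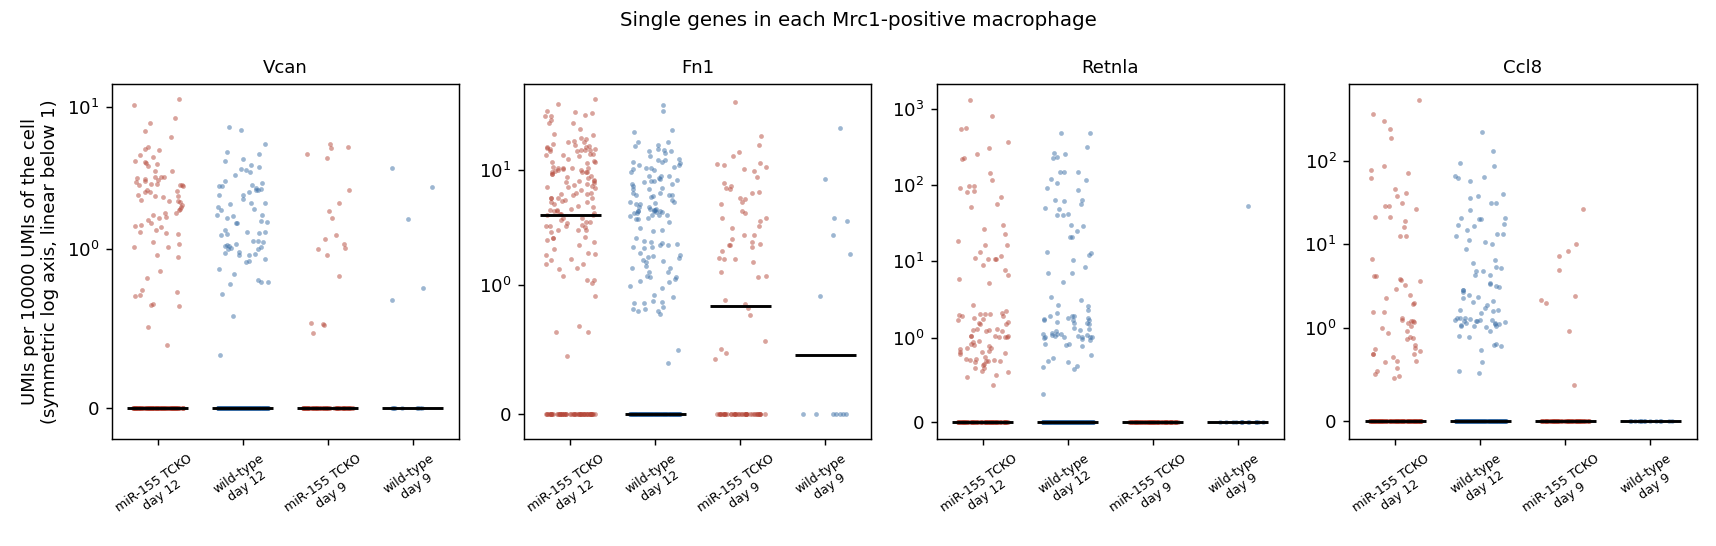
Vcan, Fn1, Retnla and Ccl8 in each member cell, in UMIs per 10000 UMIs of the cell on a symmetric log axis that is linear below 1 (points are cells, bars are medians). Fn1 is above 0 in most miR-155 TCKO members at day 12 (138 of 193), while Retnla and Ccl8 are at 0 in most members and reach their highest values in a few cells of both day 12 libraries.

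Genes of recently arrived monocytes separated the genotypes at day 9. Of 21 genes of that list, 4 were at least 1.5-fold higher and 4 lower in miR-155 TCKO members at day 12 (median log2 ratio 0.15), and 2 were higher and 17 lower at day 9 (median -0.98). Over all 5832 genes measured in the day 9 pair, 23% were higher and 22.7% lower, and the median was -0.00. In the day 12 pair 6.65% of all genes were higher and 8.79% lower. Ly6c2, the gene of the Ly6C surface antigen, was at 1247 CPM in miR-155 TCKO and 2424 CPM in wild-type members at day 12. At day 9 the levels were 301 CPM in miR-155 TCKO and 2840 CPM in wild-type members. It was lower in miR-155 TCKO at both days, with the larger gap at day 9. A Ly6c2 UMI was also found in 62.5% of miR-155 TCKO and 83.2% of wild-type T cells thinned to 5000 UMIs at day 12, against 64.7% of miR-155 TCKO and 83.8% of wild-type members. The share of cells with a Ly6c2 UMI thus did not set members apart from T cells. Whether the T cells express the gene or carry free RNA was not tested.
Plac8, a small protein of monocytes and other leukocytes, was at 2899 CPM in miR-155 TCKO and 3753 CPM in wild-type members at day 12. The day 9 libraries had 460 CPM in miR-155 TCKO and 5036 CPM in wild-type members. Ccr2, the chemokine receptor that brings monocytes out of the bone marrow, was at 604 CPM in miR-155 TCKO and 719 CPM in wild-type members at day 12. Levels of day 9 were 630 CPM in miR-155 TCKO and 1272 CPM in wild-type members. Both genes were lower in miR-155 TCKO members, and the gap was wider at day 9. Per cell, the 21 genes took a median of 1.65% of UMIs in miR-155 TCKO and 1.80% in wild-type members at day 12, and 1.01% in miR-155 TCKO and 2.54% in wild-type members at day 9. Of the 21 genes, 0 passed the test of genotype, 11 had an unadjusted p under 0.05 and DESeq2 called 0 (Ly6c2 log2 fold change -2.05, SE 0.45, adjusted p = 0.36, edgeR).

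Type I interferon genes were lower in the miR-155 TCKO members of day 9 than in the other 3 libraries. At day 12, 0 of 28 genes of the list were at least 1.5-fold higher and 2 were lower in miR-155 TCKO members, with a median log2 ratio of 0.01. At day 9 all 23 genes with at least 20 UMIs over the pair were lower, with a median of -2.65. The shares of all genes were 6.65% higher and 8.79% lower at day 12, and 23% higher and 22.7% lower at day 9. Isg15, a ubiquitin-like protein, was at 761 CPM in miR-155 TCKO and 727 CPM in wild-type members at day 12, and at 117 CPM in miR-155 TCKO and 1406 CPM in wild-type members at day 9 (log2 ratio at day 9 -3.59, -3.89 to -3.29). Irf7, the transcription factor that amplifies interferon production, was at 457 CPM in miR-155 TCKO and 620 CPM in wild-type members at day 12. In the day 9 pair, the levels were 81.5 CPM in miR-155 TCKO and 730 CPM in wild-type members. The miR-155 TCKO day 9 library was the low one of the 4 for both genes.
Rsad2 (viperin, an antiviral enzyme) was at 92.0 CPM in miR-155 TCKO and 98.0 CPM in wild-type members at day 12. The pair of day 9 had 5.48 CPM in miR-155 TCKO and 93.8 CPM in wild-type members. Ifitm3, a membrane protein that blocks viral entry, was at 5901 CPM in miR-155 TCKO and 6199 CPM in wild-type members at day 12. The levels at day 9 were 1857 CPM in miR-155 TCKO and 7233 CPM in wild-type members. Bst2 (tetherin) was at 864 CPM in miR-155 TCKO and 772 CPM in wild-type members at day 12. Day 9 levels were 316 CPM in miR-155 TCKO and 797 CPM in wild-type members. Ifit3 and Oas3, whose promoter windows are printed above, had log2 ratios at day 9 of -3.24 (-4.04 to -2.44) and -3.64 (-4.92 to -2.39).

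Summed over the 28 measured genes of the list, the level was 14223 CPM in miR-155 TCKO and 14440 CPM in wild-type members at day 12, and 4225 CPM in miR-155 TCKO and 16649 CPM in wild-type members at day 9. Within miR-155 TCKO tumours 28 of 28 genes were at least 1.5-fold higher at day 12 than at day 9 (median 2.25), where 16.4% of 7829 genes were higher and 13.3% lower. Within wild-type tumours 2 were higher and 11 lower at day 12 (median -0.29), where 21.2% of 7264 genes were higher and 21.6% lower. The low level was shared by most cells of the library: the list took under 0.5% of UMIs in 25 of 193 miR-155 TCKO and 44 of 283 wild-type members at day 12, and in 73 of 94 miR-155 TCKO and 1 of 14 wild-type members at day 9. Macrophages of the Lyz2 and C1q gate outside the members showed the same order, with summed levels of 14849 CPM in miR-155 TCKO and 15548 CPM in wild-type at day 12, and 5615 CPM in miR-155 TCKO and 19370.5 CPM in wild-type at day 9. In T cells the sum was 3333 CPM in miR-155 TCKO and 4111 CPM in wild-type at day 12, and 3066 CPM in miR-155 TCKO and 3156 CPM in wild-type at day 9. The additive test of genotype (edgeR) called 0 of the 28 genes, 12 had an unadjusted p under 0.05 and DESeq2 called 0, and a difference present at 1 day only is not what that test estimates.

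**Figure D3:**
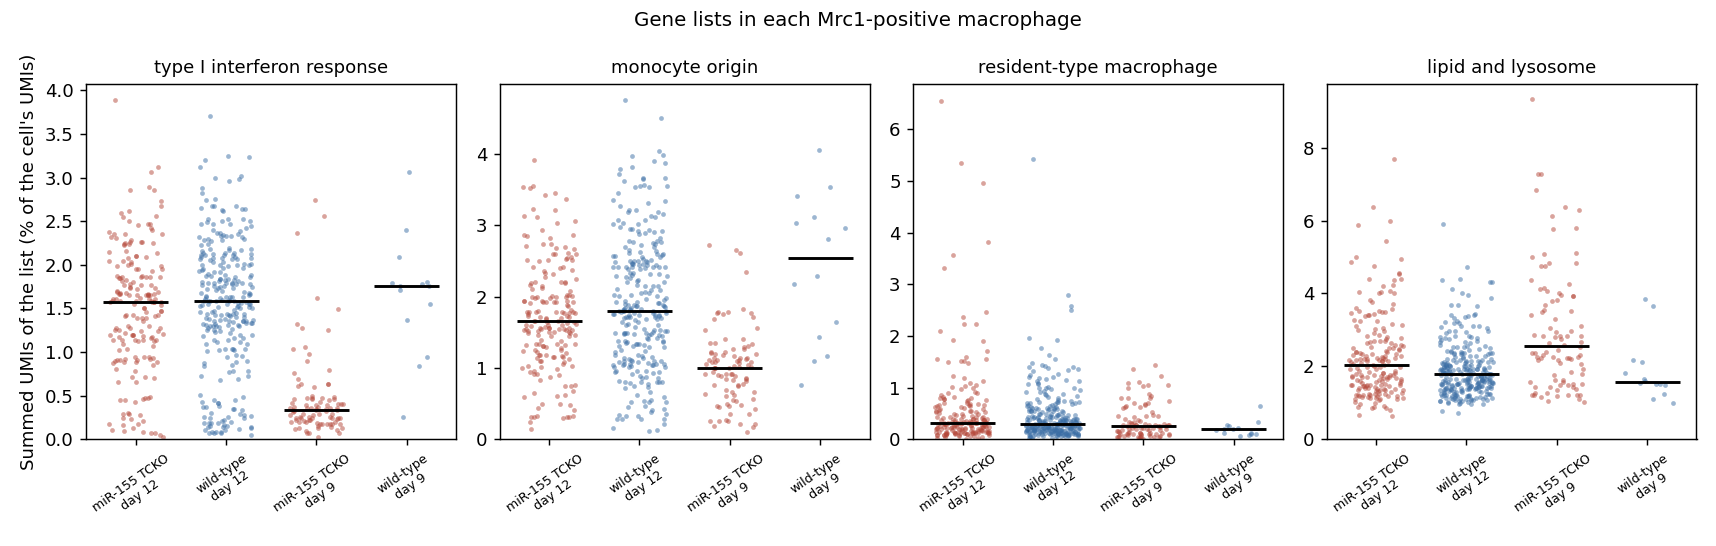
Share of each member's UMIs taken by 4 gene lists (points are cells, bars are medians). For the type I interferon list the medians are 1.58% in both day 12 libraries, 0.337% in the miR-155 TCKO day 9 cells and 1.76% in the 14 wild-type day 9 cells.

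Genes induced by interferon-gamma were more often lower than higher in miR-155 TCKO members at both days, and those of MHC class I presentation at day 9. Of the interferon-gamma list without the genes of the rule, 0 of 29 genes were 1.5-fold higher and 13 were lower in miR-155 TCKO members at day 12 (median -0.34), and 2 of 22 were higher and 16 lower at day 9 (median -1.12). Since the rule removes cells with Il18bp and Gbp transcripts, and removed more of them in wild-type tumours, these values are what that clause leaves. The shares of all genes were 6.65% higher and 8.79% lower at day 12, and 23% higher and 22.7% lower at day 9. Without the clause 22 of 31 genes were lower at day 12 (median -0.87) and 21 of 26 at day 9 (median -1.90). Of all genes measured without the clause, 668 were higher and 757 lower at day 12, and 1287 were higher and 1203 lower at day 9. Iigp1, an interferon-inducible GTPase, was at 22.4 CPM in miR-155 TCKO and 92.1 CPM in wild-type members at day 12 (log2 ratio -2.04, -2.52 to -1.58), and Serpina3g, a serine protease inhibitor, was at 11.7 CPM in miR-155 TCKO and 38.7 CPM in wild-type members (log2 ratio -1.73, -2.43 to -1.08).
Of MHC class I genes, 0 of 22 were higher and 2 lower at day 12 (median -0.27), where 8.79% of all genes were lower, and 0 of 21 were higher and 14 lower at day 9 (median -0.80), where 22.7% of all genes were lower. The genotype test (edgeR) called 0 of 29 interferon-gamma genes and 0 of 22 class I genes, 12 interferon-gamma genes and 7 class I genes had an unadjusted p under 0.05, and DESeq2 called 0 of either list. H2-Q7, a non-classical class I gene, was at 189 CPM in miR-155 TCKO and 301 CPM in wild-type members at day 12. The day 9 libraries had 80.2 CPM in miR-155 TCKO and 281 CPM in wild-type members. Its family members are near copies, so the split of reads among them is uncertain. MHC class II genes differed little by this measure, with 1 of 10 lower at each day and 0 higher. H2-Ab1, a chain of the class II molecule, was at 7974 CPM in miR-155 TCKO and 7605 CPM in wild-type members at day 12. Levels of day 9 were 6708 CPM in miR-155 TCKO and 9644 CPM in wild-type members.

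Among the 7 genes that passed the test of day, 4 belong to the resident-type list, genes of tissue macrophages. Of 18 genes of the list that were tested, 4 rose and 0 fell at day 12, and 16 had a log2 fold change above 0. Folr2, a folate receptor of tissue macrophages, was at 173 CPM in miR-155 TCKO and 179 CPM in wild-type members at day 12. In the day 9 pair, the levels were 22.6 CPM (33 UMIs) in miR-155 TCKO and 6.70 CPM (1 UMI) in wild-type members. It was higher at day 12 in both genotypes (log2 fold change 3.25, SE 0.40, adjusted p = 0.0091, edgeR). Cbr2, a carbonyl reductase, was at 149 CPM in miR-155 TCKO and 140 CPM in wild-type members at day 12, and at 20.6 CPM in miR-155 TCKO and 13.4 CPM (2 UMIs) in wild-type members at day 9 (log2 fold change 2.98, adjusted p = 0.0091, edgeR). At day 12 the intervals of the ratio between genotypes held 0 for both genes (-0.25 to 0.15 for Folr2 and -0.14 to 0.31 for Cbr2).
Ltc4s, leukotriene C4 synthase, was at 48.1 CPM in miR-155 TCKO and 22.5 CPM in wild-type members at day 12, and at 2.06 CPM (3 UMIs) in miR-155 TCKO and 0 UMIs in wild-type members at day 9 (log2 fold change 4.59, adjusted p = 0.020, edgeR). Ccl8, a chemokine of resident-type macrophages that binds CCR2 and other receptors, was at 1603 CPM in miR-155 TCKO and 488 CPM in wild-type members at day 12, and at 62.4 CPM in miR-155 TCKO members and 0 UMIs in wild-type members at day 9 (log2 fold change 5.03, SE 0.45, adjusted p = 6.56e-04, edgeR). The libraries of day 12 were above those of day 9 for each of the 4 genes. Folr2 UMIs were found in 33.5% of miR-155 TCKO and 28.5% of wild-type members thinned to 5000 UMIs at day 12, against 2.08% of miR-155 TCKO and 1.05% of wild-type T cells.
For Ccl8 the same shares were 23.1% of miR-155 TCKO and 21.1% of wild-type members, against 20.8% of miR-155 TCKO and 6.32% of wild-type T cells, so the share of miR-155 TCKO members with a Ccl8 UMI is near that of cells that should lack it. Its level stood far above the T cell level (33.1 CPM in miR-155 TCKO and 14.9 CPM in wild-type T cells), and 5 cells gave 73.4% of the Ccl8 UMIs of the miR-155 TCKO and 45.7% of those of the wild-type members.

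The other 2 transcripts that rose at day 12, Gm42418 and AY036118, overlap on opposite strands at chr17:39846958-39848788 (GRCm38), and counting by strand is not stated in the sources used here. Gm42418 was at 677 CPM in miR-155 TCKO and 393 CPM in wild-type members at day 12. The pair of day 9 had 74.0 CPM in miR-155 TCKO and 134 CPM in wild-type members. Over all kept cells it had the same order of days, at 493 CPM in miR-155 TCKO and 328 CPM in wild-type at day 12, and 67.2 CPM in miR-155 TCKO and 114 CPM in wild-type at day 9. The single gene that fell at day 12, Cyp51, encodes lanosterol demethylase of cholesterol synthesis. It was at 25.2 CPM in miR-155 TCKO and 19.8 CPM in wild-type members at day 12, and at 127 CPM in miR-155 TCKO and 80.4 CPM in wild-type members at day 9 (log2 fold change -2.19, SE 0.35, adjusted p = 0.049, edgeR). Each of the 7 calls for day was lost when the Il18bp and Gbp clause was dropped, where the lowest adjusted p among them was 0.15 (Folr2 and Cbr2, edgeR), and DESeq2's Wald test called Folr2, Cbr2 and Gm42418 of them.

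Alternative activation genes other than Mrc1 were led by Retnla, which encodes the secreted resistin-like molecule alpha and responds to interleukin-4. Retnla was at 2711 CPM in miR-155 TCKO and 1551 CPM in wild-type members at day 12, and at 0 UMIs in miR-155 TCKO and 141 CPM in wild-type members at day 9. The 21 wild-type UMIs of day 9 came from 1 cell, and the levels of day 12 were uneven: the highest cell gave 1452 of 5802 UMIs in miR-155 TCKO and 744 of 3924 in wild-type members, and 5 cells gave 63.0% in miR-155 TCKO and 54.4% in wild-type. Of members thinned to 5000 UMIs, 32.4% in miR-155 TCKO and 25.4% in wild-type carried a Retnla UMI at day 12, against 14.6% of miR-155 TCKO and 11.6% of wild-type T cells. Retnla did not pass the test of day (log2 fold change 6.52, SE 1.26, adjusted p = 0.13, edgeR) or of genotype.
Mgl2, a C-type lectin induced by interleukin-4, was at 319 CPM in miR-155 TCKO and 131 CPM in wild-type members at day 12. The levels at day 9 were 290 CPM in miR-155 TCKO and 134 CPM in wild-type members. It was higher in miR-155 TCKO at both days by a similar ratio, 1.28 (1.09 to 1.47) and 1.11 (0.47 to 1.84) on the log2 scale, without passing the test (adjusted p = 0.36, edgeR). Of 19 genes of the list measured at day 12, 9 were higher and 2 lower in miR-155 TCKO members (median 0.44), where 6.65% of all genes were higher and 8.79% lower. For genotype, 0 of 18 tested genes passed in edgeR (2 at an unadjusted p under 0.05, 0 in DESeq2).

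Of the lipid and lysosome genes, without Spp1 and Trem2 of the rule, 6 of 26 were at least 1.5-fold higher and 0 lower in miR-155 TCKO members at day 12 (median 0.20), and 13 of 25 were higher and 1 lower at day 9 (median 0.70). The shares of all genes were 6.65% higher and 8.79% lower at day 12, and 23% higher and 22.7% lower at day 9. Apoe, the lipid carrier of mature macrophages, was at 3376 CPM in miR-155 TCKO and 1868 CPM in wild-type members at day 12. Day 9 levels were 4780 CPM in miR-155 TCKO and 2391 CPM in wild-type members. Fabp5, a fatty acid binding protein, was at 599 CPM in miR-155 TCKO and 298 CPM in wild-type members at day 12. At day 9 the levels were 1097 CPM in miR-155 TCKO and 114 CPM in wild-type members. Both were higher in miR-155 TCKO at both days. Ctsb, a lysosomal protease, was at 2428 CPM in miR-155 TCKO and 2130 CPM in wild-type members at day 12, and at 3202 CPM in miR-155 TCKO and 1145 CPM in wild-type members at day 9, so its gap lay at day 9. The genotype test called 0 of 26 genes, 10 had an unadjusted p under 0.05 and DESeq2 called 0 (Apoe log2 fold change 0.95, SE 0.26, adjusted p = 0.76, edgeR).

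The list of chemokines and their receptors had 4 of 18 genes higher and 0 lower in miR-155 TCKO members at day 12 (median 0.10), and 10 of 17 higher and 4 lower at day 9 (median 1.37). Over all genes 6.65% were higher and 8.79% lower at day 12, and 23% higher and 22.7% lower at day 9. The genotype test (edgeR) called 0 of the 18 genes, 8 had an unadjusted p under 0.05 and DESeq2 called 0. Ccl2, the ligand of CCR2, was at 1956 CPM in miR-155 TCKO and 1941 CPM in wild-type members at day 12. The day 9 libraries had 2977 CPM in miR-155 TCKO and 864 CPM in wild-type members. Pf4 (platelet factor 4, made also by resident-type macrophages) was at 571 CPM in miR-155 TCKO and 525 CPM in wild-type members at day 12, and at 816 CPM in miR-155 TCKO members and 26.8 CPM (4 UMIs) in wild-type members at day 9. The wild-type day 9 library was the low one for both genes. Il1b, the inflammatory cytokine interleukin-1 beta, was at 134 CPM in miR-155 TCKO and 51.8 CPM in wild-type members at day 12, and at 209 CPM in miR-155 TCKO and 60.3 CPM (9 UMIs) in wild-type members at day 9, higher in miR-155 TCKO at both days (adjusted p = 0.29, edgeR).

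Of the hypoxia and glycolysis genes, 13 of 22 were at least 1.5-fold higher and 0 lower in miR-155 TCKO members at day 12 (median 0.64), where 6.65% of all genes were higher and 8.79% lower. At day 9, 5 of 23 were higher and 3 lower (median 0.15), a share of higher genes near the 23% of all genes. Over both days 23 of 24 tested genes had a log2 fold change above 0, 8 had an unadjusted p under 0.05, and 0 passed the test in edgeR or DESeq2. Eno1, an enzyme of glycolysis, was at 994 CPM in miR-155 TCKO and 633 CPM in wild-type members at day 12. Levels of day 9 were 724 CPM in miR-155 TCKO and 650 CPM in wild-type members. Slc2a1, the glucose transporter GLUT1, was at 38.3 CPM in miR-155 TCKO and 13.8 CPM in wild-type members at day 12. In the day 9 pair, the levels were 63.0 CPM in miR-155 TCKO and 46.9 CPM (7 UMIs) in wild-type members. Dissociation and stress genes differed at the same time: 4 of 17 were higher and 0 lower at day 12 (median 0.31), and 0 of 15 were higher and 11 lower at day 9 (median -0.99). The shares of all genes were 6.65% higher and 8.79% lower at day 12, and 23% higher and 22.7% lower at day 9. The part of the stress genes in the other lists was not tested.

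Of 24 cell cycle genes, 1 was higher and 3 lower in miR-155 TCKO members at day 12 (median -0.06), and 12 of 16 were higher and 1 lower at day 9 (median 0.79). The shares of all genes were 6.65% higher and 8.79% lower at day 12, near those of the list, and 23% higher and 22.7% lower at day 9. Top2a, a topoisomerase of dividing cells, was at 31.3 CPM in miR-155 TCKO and 28.8 CPM in wild-type members at day 12. The pair of day 9 had 16.4 CPM in miR-155 TCKO and 6.70 CPM (1 UMI) in wild-type members. With 14 wild-type cells at day 9, a single UMI there leaves a lower level undetectable at this depth.
Of the macrophage transcription factors, 7 of 24 were higher and 0 lower in miR-155 TCKO members at day 12 (median 0.05), where 6.65% of all genes were higher and 8.79% lower. At day 9, 2 of 20 were higher and 7 lower (median -0.36), where 23% of all genes were higher and 22.7% lower. Maf, a factor of mature macrophages, was at 315 CPM in miR-155 TCKO and 345 CPM in wild-type members at day 12. The levels at day 9 were 133 CPM in miR-155 TCKO and 161 CPM in wild-type members. It was higher at day 12 in both genotypes without passing the test (adjusted p = 0.22, edgeR). Among 19 scavenger and phagocytic receptors measured at day 12, 2 were higher and 1 lower in miR-155 TCKO members (median -0.06). Clec4n, the lectin dectin-2 of that list, was at 279 CPM in miR-155 TCKO and 109 CPM in wild-type members at day 12, and at 598 CPM in miR-155 TCKO and 67.0 CPM in wild-type members at day 9, higher in miR-155 TCKO at both days (log2 fold change 2.06, SE 0.37, adjusted p = 0.21, edgeR). Of the complement genes other than C1q, 1 of 10 was higher and 1 lower at day 12 (median 0.18). The scavenger and complement counts of day 12 were near the shares of all genes, 6.65% higher and 8.79% lower.

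**Figure D4:**
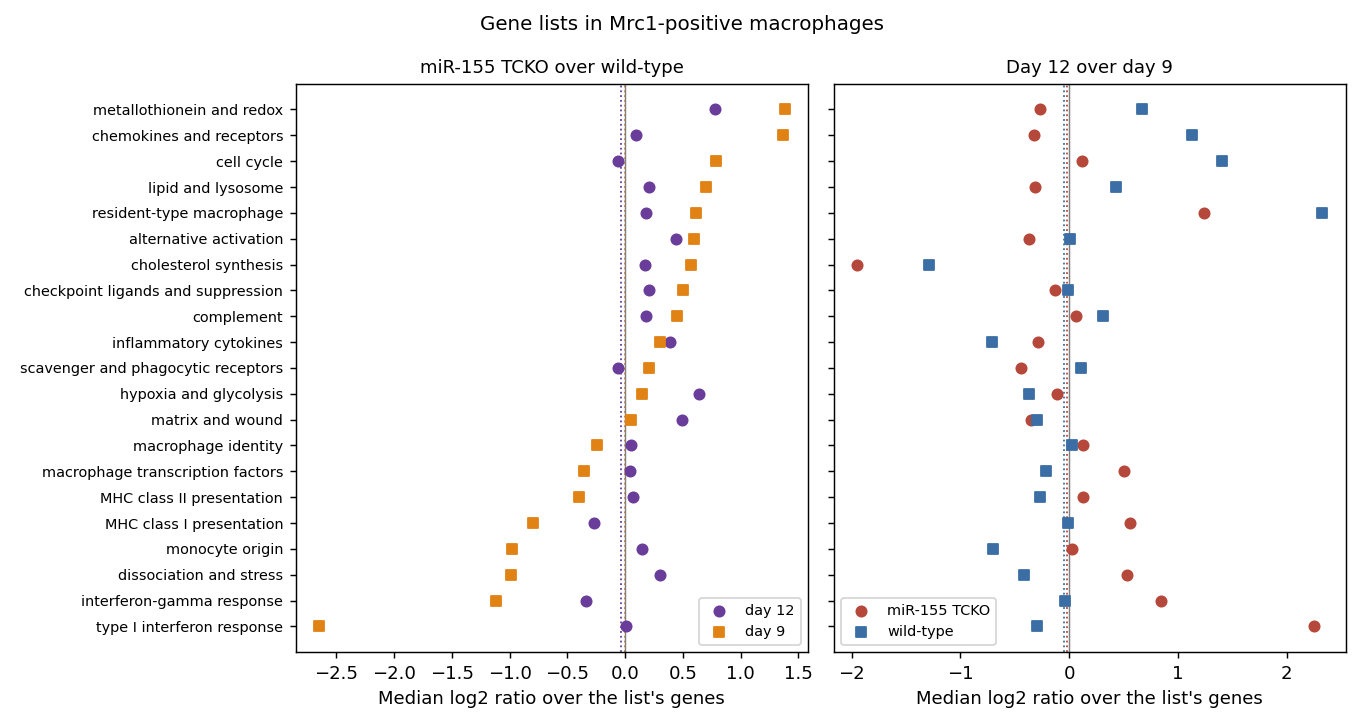
Median log2 ratio of each gene list in the members, miR-155 TCKO over wild-type at each day on the left and day 12 over day 9 in each genotype on the right (dotted lines are the medians over all genes measured in the pair). The type I interferon list lies at 0.01 at day 12 and -2.65 at day 9 on the left, and at 2.25 in miR-155 TCKO and -0.29 in wild-type on the right.

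Beyond the lists, the 10 highest ratios of miR-155 TCKO over wild-type members at day 12 among genes with at least 50 UMIs were those of Gm10709, Gm14548, Hspa1b, Thbs1, Nudt16, Timp1, Hspa1a, Osm, Ccl8 and Cebpe. The 10 lowest were those of Gbp2b, Rpl29, Xcl1, Ifitm1, Iigp1, Gzma, Serpina3g, Gbp8, Wdfy1 and Crybb1. Osm, the cytokine oncostatin M, was at 43.5 CPM in miR-155 TCKO and 12.6 CPM in wild-type members at day 12. Day 9 levels were 69.9 CPM in miR-155 TCKO and 33.5 CPM (5 UMIs) in wild-type members. Gzma and Xcl1, products of cytotoxic lymphocytes, had 17 and 8 UMIs in miR-155 TCKO and 79 and 63 UMIs in wild-type members at day 12, beside the NK cell sum given above. Gbp2b and Gbp8 are genes of the rule, and their ratios are a description.

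Set beside other C1q macrophages of the same tumours at day 12, the members carried less of the resident-type list than macrophages with Lyve1 or Cd209f (55 cells in miR-155 TCKO and 48 in wild-type tumours). Its summed level was 6403 CPM in miR-155 TCKO and 4696 CPM in wild-type members, against 29231 CPM in miR-155 TCKO and 23233 CPM in wild-type macrophages with Lyve1 or Cd209f. It was 5640 CPM in miR-155 TCKO and 3231 CPM in wild-type Mrc1-negative macrophages that passed every other clause. MHC class II genes were higher in members than in that set, with 48802 CPM in miR-155 TCKO and 45454 CPM in wild-type members, against 13792 CPM in miR-155 TCKO and 16299 CPM in wild-type Lyve1 or Cd209f cells. Mrc1-negative macrophages had more of them than the members, 56293 CPM in miR-155 TCKO and 48823 CPM in wild-type tumours, and the Il18bp and Gbp set had 39538 CPM in miR-155 TCKO and 48607 CPM in wild-type tumours. Vcan was at 15.2 CPM in miR-155 TCKO and 1.74 CPM in wild-type Lyve1 or Cd209f cells at day 12. In Mrc1-negative macrophages it was at 53.9 CPM in miR-155 TCKO and 60.7 CPM in wild-type, and in all other C1q macrophages at 51.4 CPM in miR-155 TCKO and 54.5 CPM in wild-type, so in wild-type tumours it did not set the members apart. Against the macrophages set apart by Il18bp and Gbp genes, members had more Cx3cr1, the fractalkine receptor, at 22.9 CPM in miR-155 TCKO and 31.6 CPM in wild-type members against 3.24 CPM in miR-155 TCKO and 3.21 CPM in wild-type cells of that set. They had less Cd38, an enzyme that consumes NAD, at 8.41 CPM in miR-155 TCKO and 4.74 CPM in wild-type members against 60.5 CPM in miR-155 TCKO and 28.5 CPM in wild-type cells of that set. That set may fail other clauses too and overlaps the Lyve1 or Cd209f cells, with 232 Lyve1 UMIs in miR-155 TCKO and 276 in wild-type. In Lyve1 or Cd209f cells Cd38 was at 110 CPM in miR-155 TCKO and 113 CPM in wild-type, and Cx3cr1 at 2.17 CPM and 5.21 CPM. The part of the overlap in both differences was not tested. Against Mrc1-negative cells, members had more Gas6, a ligand of the TAM receptors that take up dying cells, at 49.5 CPM in miR-155 TCKO and 43.1 CPM in wild-type members against 6.34 CPM in miR-155 TCKO and 3.80 CPM in wild-type cells of that set. They had less Cd274 (PD-L1), at 19.2 CPM in miR-155 TCKO and 17.0 CPM in wild-type members against 44.4 CPM in miR-155 TCKO and 43.0 CPM in wild-type cells of that set. The rule drew these sets from each other by measured genes, so the differences have no test, and Gas6, Cd38, Cd274 and Cx3cr1 were chosen after their values were seen.

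Members also differed among themselves within each library. The share of UMIs in the type I interferon list and that in the monocyte list went together over cells thinned to 5000 UMIs, with Spearman's rho of 0.593 over 173 miR-155 TCKO cells and 0.688 over 228 wild-type cells at day 12, and of 0.445 over 93 miR-155 TCKO cells at day 9. The lists share no gene, and the cells of a library share its depth, free RNA and preparation, so these are descriptions. Counted by cells at day 12, Vcan and Folr2 were both found in 20 of 193 miR-155 TCKO members, Vcan without Folr2 in 59, Folr2 without Vcan in 59 and neither in 55. In wild-type members the same counts were 18, 56, 78 and 131 of 283. Most cells with a Vcan UMI thus had no Folr2 UMI and the reverse, at a depth where both genes are missed in many cells.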

How the data were processed

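Raw UMI counts per gene and barcode were used as deposited for 4 10x libraries. The authors made these counts with Cell Ranger 2.0.2 on mm10, per the submitters' processing notes. The members and the gene lists were chosen with earlier results of these data known. Of 11270 barcodes, 11224 passed the filters on genes and mitochondrial share. Member counts were summed per library (149317 to 2530545 UMIs) and fitted with edgeR 4.0.16 in R 4.3.3 (additive terms for day and genotype, TMM, filterByExpr, Benjamini-Hochberg, adjusted p of 0.05). Pairs of libraries were compared by CPM ratios with exact conditional intervals, without a test. For lists, 0.5 UMIs were added and genes needed 20 UMIs over the pair, and 1.5-fold counted as a difference. No deposited column was left unmapped (0 columns).

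Genes named in the text are those of the rule, those of the lists with 20 UMIs over the pair (the most abundant and the most changed), those past the test, the 10 highest and 10 lowest ratios at day 12 with 50 UMIs, and the 15 most abundant outside ribosomal and mitochondrial genes. Cells were thinned to 5000 UMIs for shares of cells with a UMI. Doublets were not removed beyond the clauses of the rule, and a removal by Scrublet score (scanpy 1.11.5) was tried. Counting intervals cover counting error only. The fit was tested on simulated data. Alternatives were DESeq2 1.42.0, other scalings, filters and thresholds, leaving out the Il18bp and Gbp clause, and leaving out members with lymphocyte or dendritic UMIs. The last 2 were chosen after the data were seen. RefSeq sequences were matched by symbol on GRCm38.p6.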

Additional observations from a re-analysis of the deposited data

Results flagged for a closer look

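Several values of the members ran in opposite directions at the 2 days when miR-155 TCKO was set over wild-type, and the difference between the days was not tested. The day 9 side rests on 14 wild-type cells in each case.

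Among summed lists, MHC class II genes had a log2 ratio of 0.10 at day 12 and -0.44 at day 9 and dissociation and stress genes of 0.13 at day 12 and -0.55 at day 9. Thbs1 had a log2 ratio of 2.56 at day 12 and -0.95 at day 9, where 17 of 20 wild-type UMIs came from 1 cell and the other 13 cells held 3, so its day 9 direction rests on that cell. Hspa1a, a heat shock chaperone of the stress list, had 1.82 at day 12 and -1.69 at day 9, so it followed the summed stress list. Pgk1, an enzyme of glycolysis, had 1.15 at day 12 and -1.39 at day 9. Cebpb, a transcription factor of myeloid cells, had 0.64 at day 12 and -1.89 at day 9, where 1 cell gave 17 of 38 wild-type UMIs. Retnla had a log2 ratio of 0.81 at day 12, and at day 9, with 0 UMIs in miR-155 TCKO members, it was at least 68.4-fold lower than in wild-type members, whose UMIs came from 1 cell. Stab1, a scavenger receptor, had a log2 ratio of -0.68 at day 12, and at day 9, with 0 UMIs in wild-type members, it was at least 4.13-fold higher in miR-155 TCKO members. Both bounds use a floor of 3 counts per library.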

How the results depend on the processing

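No paired analysis was possible because each genotype and day has 1 library, and leaving out a library leaves no residual degree of freedom. For genotype (1 higher and 1 lower), 23 genes were higher and 24 lower without the filter on low counts, 3 and 2 with high doublet scores removed, 1 and 2 with at least 2 Mrc1 UMIs, and 0 and 2 without the Il18bp and Gbp clause. For day (6 higher and 1 lower), 46 were higher and 21 lower without the filter, 10 and 6 with high doublet scores removed, 3 and 0 by DESeq2's Wald test and with up to 5% mitochondrial UMIs, and 0 and 0 without the clause. No gene was lower at day 12 (0) with DESeq2 size factors, library size alone, at least 2 Mrc1 UMIs or members free of lymphocyte and dendritic UMIs.

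Without the clause the share ratio of miR-155 TCKO over wild-type was 0.730 at day 12 and 1.33 at day 9. That within the Lyz2 and C1q gate was 0.906 at day 12 and 0.665 at day 9, and the Apoe log2 ratio of day 12 over day 9 in wild-type was 0.16. The cause was not tested. With the rule applied after thinning to 5000 UMIs, the share ratio was 1.09 (0.898 to 1.31) at day 12 and 2.27 at day 9. Requiring 50 UMIs, the genes 1.5-fold higher and lower numbered 279 and 335 for the day 12 pair, 742 and 576 for the day 9 pair, 753 and 595 for day 12 over day 9 in miR-155 TCKO and 905 and 778 in wild-type, since fewer genes were measured. With 2 UMIs added, 546 were higher in the day 9 pair, and 365 were higher and 2900 lower for day 12 over day 9 in wild-type. DESeq2 size factors shifted the day 9 pair by 0.11 (log2). The median of the type I interferon list at day 9 ranged from -3.11 to -2.35. Of the list medians under alternatives, 633 moved by less than their spread and 148 by more, and of gene ratios 422 and 78, with 1 reversed. Depth limits the day 9 values most, where 3 UMIs in wild-type members are 20.1 CPM.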

Other observations

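Cholesterol synthesis genes, a list added after the values were seen, were lower at day 12 in both genotypes. Their summed level was 353 CPM in miR-155 TCKO and 328 CPM in wild-type members at day 12, and 1332 CPM in miR-155 TCKO and 817 CPM in wild-type members at day 9. Of the genes measured, 19 of 20 were at least 1.5-fold lower at day 12 in miR-155 TCKO and 15 of 16 in wild-type members. Over all genes 13.3% were lower in miR-155 TCKO and 21.6% in wild-type members. In edgeR 1 of 19 tested genes, Cyp51, passed the test of day. Hmgcs1, the synthase of the first steps of the pathway, was at 19.2 CPM in miR-155 TCKO and 15.8 CPM in wild-type members at day 12, and at 94.6 CPM in miR-155 TCKO and 67.0 CPM in wild-type members at day 9 (adjusted p = 0.065, edgeR). T cells had the same order of days, with sums of 329 CPM in miR-155 TCKO and 318 CPM in wild-type at day 12, and 593 CPM in miR-155 TCKO and 469 CPM in wild-type at day 9.

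Metallothionein and redox genes, also listed after the values were seen, summed to 1936 CPM in miR-155 TCKO and 1414 CPM in wild-type members at day 12, and to 2506 CPM in miR-155 TCKO and 1065 CPM in wild-type members at day 9. All 7 tested genes had a log2 fold change above 0 for genotype, 6 had an unadjusted p under 0.05, and 0 passed the test in edgeR or DESeq2. Mt1, a metal-binding protein, was at 392 CPM in miR-155 TCKO and 229 CPM in wild-type members at day 12, and at 403 CPM in miR-155 TCKO and 134 CPM in wild-type members at day 9. Hmox1, which breaks down haem, was at 353 CPM in miR-155 TCKO and 217 CPM in wild-type members at day 12, and at 424 CPM in miR-155 TCKO and 181 CPM in wild-type members at day 9. Both were higher in miR-155 TCKO members at both days.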
